A study of Rattus norvegicus with 57 samples.

Results

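This account describes how far the liver transcriptome of rats given 80 mg/kg methapyrilene returned towards control after dosing stopped. The quantity followed was the difference between 80 mg/kg and control on day 24 minus the same difference on day 15, on the log2 scale, for every gene tested. It rested on 19 of the 57 arrays of the series, with 1 array per animal and 10725 genes. The animals were male Han Wistar rats, 8 to 10 weeks old at the start. The 80 mg/kg rats received methapyrilene in carboxymethylcellulose by oral gavage once a day, and the control rats received the vehicle. The day 24 groups had 14 days of gavage followed by 10 days without it, with 5 arrays at 80 mg/kg and 4 arrays of controls. The day 15 groups were sampled at the end of dosing, with 5 arrays each. Groups given 30 mg/kg, with 4 arrays on day 24 and 5 on day 15, were used at the end for comparison. The design gives 6 animals per group and day, and animals behind further arrays were not analysed here. Replicates were different rats, and different rats were sampled on the 2 days.

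Methapyrilene is an antihistamine that was withdrawn because it injures the rat liver, where hepatocytes convert it to reactive products. Injured hepatocytes switch on protective programmes: NRF2 drives glutathione and antioxidant genes, and ATF4 drives genes of amino acid supply when protein synthesis is disturbed. They also turn down the genes of the differentiated liver, such as transporters, cytochromes P450 and plasma proteins, while cells of the bile duct lineage, macrophages and matrix-producing stellate cells may increase around the injury. Liver homogenate mixes all these cells, so a change in the number of cells of a type cannot be told apart from a change of RNA per cell.

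The 19 arrays correlated with a median of 0.9405 within their group, and the highest correlation of any pair in the series was 0.9487. Every array had been scaled to a trimmed mean of 99.992. The median signal nevertheless lay between 18.9 and 21.12 on the 80 mg/kg day 24 arrays and between 15.88 and 17.78 on the control day 24 arrays, without overlap. On day 15 it lay between 16.84 and 19.23 at 80 mg/kg and between 15.48 and 16.33 in controls. The 3'/5' signal ratio of the actin probe sets, a measure of RNA integrity, was 5.84 to 6.76 at 80 mg/kg and 6.04 to 9.76 in controls on day 24, and on day 15 it was 3.77 to 4.93 at 80 mg/kg and 5.02 to 6.37 in controls. On day 24 the median difference from control was 0.33, 0.15, 0.05, -0.01 and -0.09 log2 in 5 equal bins of genes ordered by rising mean signal. This shift lies beneath every day 24 value given here, and its part in the results was not tested.

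Most of the day 15 response was gone after the recovery days. Of the 10725 genes, 4578 passed in the difference between days (42.7%), 1783 upwards (16.6%) and 2795 downwards (26.1%), with limma and a Benjamini-Hochberg adjusted p under 0.05. Of the 6354 genes that differed from control on day 15 (59.2%), 4125 moved back towards control and 4 moved further away. Picking genes on day 15 favours a move back, because the same arrays enter the difference between days. Of 967 genes picked on day 8 with a change of at least 1 log2, 621 moved against their day 15 difference and 2 along it. The direction was still read from the day 15 arrays, so this count is not free of the same tilt. On day 24, 1097 genes differed from control (10.2%), 767 higher (7.15%) and 330 lower (3.08%), a count that fell to 611, 693 and 683 without control replicate 3, control replicate 5 and 80 mg/kg replicate 2 of day 24. With arrays set to a common median, the day 24 count was 3626, with 267 higher and 3359 lower, so its size and its direction depended on the scaling; with quantile normalization 461 were higher and 312 lower. On day 24 the 80 mg/kg and control arrays did not overlap for 1274 genes (11.9%), with 867 above (8.08%) and 407 below (3.79%) control, and on day 15 for 4775 genes (44.5%), with 3214 above (30%) and 1561 below (14.6%). The slope of the day 24 difference on the day 15 difference, over the genes passing on day 15, was 15.8%.

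Each recovered animal kept a small part of the response. The 5 arrays of 80 mg/kg on day 24 held 18.3%, 19.1%, 16.4%, 13.7% and 11.6% of the day 15 difference, against 3.01%, -4.61%, 4.02% and -2.42% on the 4 control arrays. The 2 groups did not overlap. The part left was 18.9% ± 4.03 (SD, n = 5) over the genes higher on day 15 and 7.8% ± 1.28 (SD, n = 5) over the genes lower on day 15. Over genes with a mean signal above 100, a limit chosen after the data were seen, it was 9.23%. Genes picked on day 8 rather than on day 15, with a change of at least 1 log2 there, gave a slope of 19.3% over 967 genes. The mean of the 715 genes higher on day 8 minus the mean of the 252 lower ones was 0.62 ± 0.12 log2 above control on day 24 (SD, n = 5), with a range of 0.50 to 0.78 against -0.25 to 0.21 in the day 24 controls, and 3.57 ± 0.43 log2 on day 15 (SD, n = 5). On day 24 the 715 lay at 0.35 to 0.61 log2 and the 252 at -0.17 to -0.12 log2 as deposited. With arrays at a common median they lay at 0.07 to 0.37 and -0.46 to -0.29 log2. The gap between the 2 directions thus depended on the scaling.

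Genes were then sorted by what became of a large day 15 change. On day 15, 1568 genes passed with a change of at least 1 log2 (14.6%), 1075 higher and 493 lower. A gene was called reverted when it passed in the difference between days, did not pass on day 24 and kept within 25% of its day 15 change on either side of control. This held for 937 genes, 59.8% of the 1568. A further 104 genes were partial, passing on day 24 with the day 15 sign and also between the days. The 50 genes called stay passed on day 24 with the day 15 sign but did not pass between the days, and 6 genes overshot, passing on day 24 with the opposite sign. Of the 1568, 0 passed between the days in the direction of the day 15 change, a count also favoured by picking the genes on day 15. The other genes could not be placed: 193 receded but met none of these definitions, and 278 passed neither on day 24 nor between the days. Membership of the reverted class moved with the scaling. With arrays at a common median it held 726 genes, among them 535 of the 937. With quantile normalization it held 904, among them 721 of the 937. With 16 added to every signal it held 736, among them 695.

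The shares differed between directions, which were not tested against each other. Of the 493 genes lower on day 15, 365 reverted (74%) and 1 stayed. Of the 1075 genes higher on day 15, 572 reverted (53.2%) and 49 stayed. The classes also differed in signal, with a median control signal on day 15 of 111 for reverted genes, 61.2 for partial genes, 29.1 for genes that stayed and 10.5 for those that passed neither test. For 833 reverted genes (88.9%) the 95% interval of the day 24 difference lay within 1 log2 of control, and for 800 (85.4%) within 0.5 times the day 15 change.

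**Figure D1:**
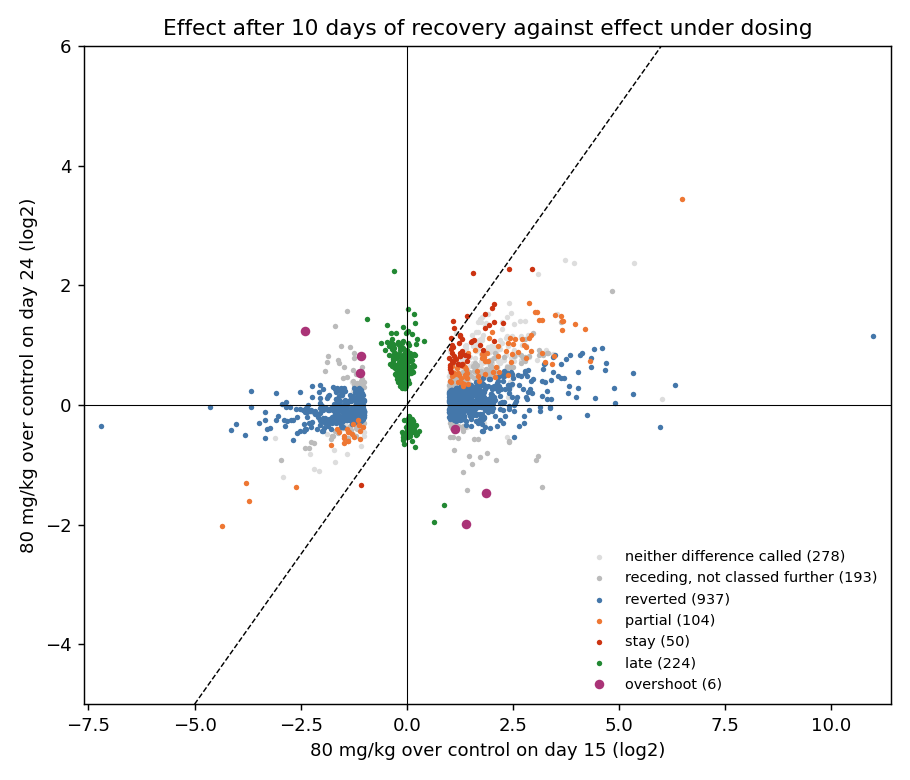
Each point is a gene; the horizontal axis gives 80 mg/kg over control on day 15 and the vertical axis the same on day 24 (both log2), coloured by class with the number of genes in brackets. The dashed line marks an unchanged effect; the 937 reverted genes lie along the horizontal zero line, and the 50 genes that stayed lie near the dashed line, 49 of them on the side of higher signal.

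The classes were also followed on the earlier days of dosing. Days 4 and 8 were not used to define them. Among reverted genes 95.2% passed on day 8 with the day 15 sign, beside 50.8% of all genes passing on day 8 (34.2% higher and 16.6% lower), and 71.8% passed on day 4, beside 27.5% of all (18.3% higher and 9.19% lower). For the genes that stayed the shares were 82% and 44%. Both classes were picked for a large day 15 change, so the shares of all genes are not a like comparison. In the direction of day 15, the median change on days 4 and 8 was 0.60 and 0.98 log2 for reverted genes. For the genes that stayed it was 0.49 and 1.01 log2, so these medians were similar. A separate set of 224 genes was late: they did not pass on day 15, passed on day 24 and passed between the days, 164 upwards and 60 downwards. The median of the 164 rising late genes was -0.05, 0.13 and -0.09 log2 on days 4, 8 and 15 and 0.67 log2 on day 24. In 133 of the 224 late genes the 80 mg/kg groups differed between the 2 days and the controls did not, and in 42 the controls differed and the 80 mg/kg groups did not. Over all genes, 6350 differed between the 80 mg/kg groups of day 24 and day 15 (59.2%, with 25% higher and 34.2% lower on day 24), and 1635 between the control groups (15.2%, with 8.53% higher and 6.71% lower). The number of late genes was 139 without control replicate 3 of day 24.

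**Figure D2:**
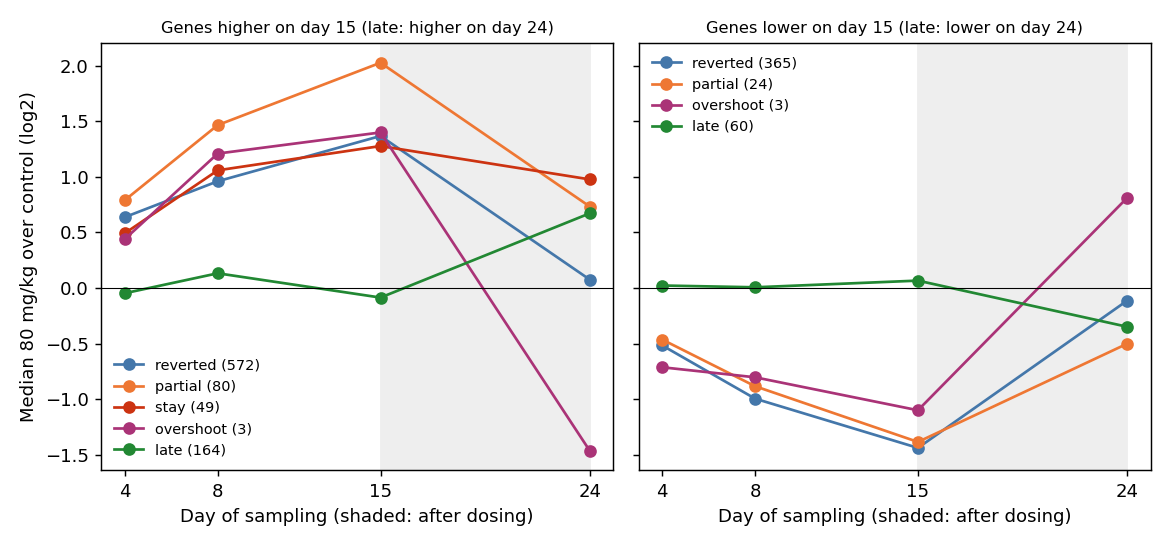
Median difference between 80 mg/kg and control (log2) against day of sampling, for each class with at least 3 genes, separately for genes higher (left) and lower (right); shading marks the time after dosing. Reverted genes reach 1.37 and -1.44 on day 15 and 0.08 and -0.11 on day 24, while the 49 genes that stayed higher lie at 1.28 on day 15 and 0.98 on day 24, and late genes lie near zero up to day 15.

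The stress genes of the hepatocyte reversed. Of 27 measured targets of ATF4, 22 were higher and 2 lower on day 15 (38.8% and 20.5% of all genes), 20 fell back between the days, and 2 were higher and 1 lower on day 24. The number higher on day 24 was 6 without control replicate 4 and 4 without 80 mg/kg replicate 1 of that day, and 1 without control replicate 3 or 5 or 80 mg/kg replicate 4 or 5. Trib3, a pseudokinase of the ATF4 response, had signals of 52.2, 62.49, 52.42, 69.22 and 96.33 at 80 mg/kg on day 24, against 40.09, 53.23, 68.29 and 54.41 in controls. Its day 15 signals were 1757, 1868, 2101, 1831 and 1763 at 80 mg/kg, against 64.01, 76.12, 62.03, 61.59 and 52.15 in controls. The groups overlapped on day 24 and were far apart on day 15, and the change between days was -4.60 ± 0.49 log2 (SE, adjusted p = 1.2e-10, limma). Fgf21, a hormone that the stressed liver secretes, stood 4.69 log2 above control on day 15 and 0.70 log2 on day 24, where it did not pass (adjusted p = 0.24) although the groups did not overlap, with 25.57 to 38.99 at 80 mg/kg against 17.78 to 25.09 in controls. Atf3, a transcription factor induced by injury, kept 0.14 of 4.00 log2. Aars1, an aminoacyl-tRNA synthetase, was 0.34 log2 below control on day 24 (adjusted p = 0.0052), and of the 19 enzymes of this family 17 were higher on day 15, 16 fell back and none was higher on day 24. All 19 cytosolic ribosomal protein genes were higher on day 15, all 19 fell back, and 0 passed on day 24. With arrays at a common median, 18 ribosomal protein genes and 10 synthetases were lower on day 24.

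Promoter stretches were read for the targets that hold the element bound by ATF4 with a C/EBP partner. Of the 10725 genes, 8980 matched an entry of RefSeq promoter windows of 250 bases before to 50 after the gene start (build GRCr8). The letters TGATGCAA, searched on both strands, occurred in 3 of 23 windows of the ATF4 list (13%), in 57 of the 8980 (0.635%), in 7 of 498 rising reverted genes (1.41%) and in 0 of 302 falling ones. The 3 list members are printed with the element in capitals, here on the opposite strand of the gene in each case, because Fgf21 and Nupr1 rose and receded while Chac1 did not pass.
Fgf21: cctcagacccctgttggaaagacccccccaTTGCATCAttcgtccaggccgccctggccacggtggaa
Nupr1: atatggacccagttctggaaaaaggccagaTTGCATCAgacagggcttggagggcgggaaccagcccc
Chac1: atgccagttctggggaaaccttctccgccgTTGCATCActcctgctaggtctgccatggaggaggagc
These lie at chr1:105221482-105221549 on the minus strand, at chr1:190645919-190645986 on the minus strand and at chr3:126795934-126796001 on the plus strand. Nupr1, a small stress-induced chromatin protein, stood 3.14 log2 above control on day 15 and 0.85 log2 on day 24 (adjusted p = 0.052). Chac1, a glutathione-degrading enzyme, did not pass on day 15 (0.46 log2, adjusted p = 0.44).

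The antioxidant genes followed the same course. Of 30 measured genes of the NRF2 list, 17 were higher and 3 lower on day 15, 17 fell back and 2 rose between the days, and 2 were higher on day 24. None was higher on day 24 without 80 mg/kg replicate 2, 3 or 4 of that day, 1 was without control replicate 2, 3 or 4, and 0 were higher and 10 lower with arrays at a common median. Gsta3, a glutathione transferase, had signals of 131, 73.46, 108.6, 70.76 and 146.4 at 80 mg/kg on day 24, against 95.26, 37.62, 111.3 and 75.44 in controls. On day 15 the range was 1512 to 1781 at 80 mg/kg and 77.36 to 157.8 in controls. The day 24 groups overlapped, and the change between days was -3.24 ± 0.41 log2 (SE, adjusted p = 6.7e-09). Akr1b8, an aldo-keto reductase, kept 0.79 of 4.33 log2 and did not pass on day 24. Gstm3 and Gpx2, a glutathione transferase and a glutathione peroxidase, stood 0.04 and -0.17 log2 from control on day 24 after 4.91 and 4.25 log2 on day 15. Their day 15 control signals of 4.47 to 18.05 and 0.46 to 9.48 are near the bottom of the scale, so these folds have no firm size; the Gpx2 change between days lay between -4.87 and -1.75 log2 across the alternatives. Aldh1a1, a retinaldehyde dehydrogenase, passed on day 24 at 0.90 log2 (adjusted p = 0.046) and without any 1 of 6 arrays of that day it did not: control replicate 3 or 4 or 80 mg/kg replicate 2, 3, 4 or 5 (0.49 to 0.93 log2).

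The core of the antioxidant response element, TGACNNNGC on either strand, was present in 7 of 27 promoter windows of the NRF2 list (25.9%), against 1327 of 8980 windows of all genes (14.8%) and 72 of 498 rising reverted genes (14.5%). It was also present in 5 of 23 windows of the ATF4 list (21.7%) and 13 of 61 of rising partial genes (21.3%). Of the members that hold it, 3 reverted glutathione genes are printed with Gclm, a subunit of the enzyme that makes glutathione, which did not rise under dosing. Ugdh and Me1 hold it too, also without a large day 15 change (0.18 and -0.01 log2), and are not printed. Capitals mark the core.
Gsta3: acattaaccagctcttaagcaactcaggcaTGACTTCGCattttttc
Gpx2: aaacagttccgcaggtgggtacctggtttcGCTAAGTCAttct
Gstp1: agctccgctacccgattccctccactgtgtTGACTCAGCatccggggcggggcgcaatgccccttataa
Gclm: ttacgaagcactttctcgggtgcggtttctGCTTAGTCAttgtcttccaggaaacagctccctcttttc
These lie at chr9:31154942-31154988 (plus strand), chr6:101230034-101230076 (minus), chr1:210769728-210769796 (minus) and chr2:213031933-213032001 (plus). Gstp1 stood 2.98 log2 above control on day 15 and 0.44 log2 on day 24. Gclm stood -0.17 log2 from control on day 15 and 0.29 log2 on day 24, neither passing.

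Some single lipid genes gave large rises, while their list was split. Of 21 PPAR alpha and peroxisomal lipid genes, 9 were higher and 7 lower on day 15 (38.8% and 20.5% of all genes). Between the days 3 rose and 8 fell (16.6% and 26.1% of all genes), and 1 was lower on day 24 (8 at a common median). Acot1, an acyl-CoA thioesterase, had signals of 1536 to 2514 at 80 mg/kg on day 15, against 0.14 to 4.77 in controls, and 2.87 to 4.61 at 80 mg/kg on day 24, against 0.29 to 4.61 in controls. Its control signals are near the bottom of the scale, so the fold of 10.98 log2 on day 15 has no firm lower end. The related thioesterase Acot2, with control signals of 240.8 to 347.7 on day 15, stood 3.38 log2 above control on day 15 and -0.03 log2 from it on day 24. Among other genes with large rises, Cyp4b1 and Rab30, a cytochrome P450 and a small GTPase, did not pass on day 24. They stood 0.54 and 0.59 log2 above control there, after 5.32 and 4.67 log2 on day 15. The day 24 groups of Rab30 overlapped, and those of Cyp4b1 did not, with 98.08 to 141.7 at 80 mg/kg against 63.75 to 92.77 in controls.

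Many genes of the differentiated hepatocyte rose back, though only 2 of the 9 hepatocyte markers described below did. Of 38 genes of the urea cycle and amino acid breakdown, 30 were lower and 2 higher on day 15, 23 rose and 2 fell between the days, and 2 were lower on day 24. Stac3, a reverted gene that encodes an adaptor best known from muscle, had signals of 1956, 1769, 1284, 1835 and 1859 at 80 mg/kg on day 24, against 2610, 1785, 2162 and 2345 in controls. The day 15 signals were 10.83, 14.42, 18.64, 8.29 and 71.58 at 80 mg/kg, against 2344, 2726, 3026, 2593 and 2353 in controls. The day 24 groups overlapped, and the change between days was 6.84 ± 0.60 log2 (SE, adjusted p = 7.1e-13). Sds, serine dehydratase, had 700.7 to 1850 at 80 mg/kg on day 24, against 879.8 to 1795 in controls, and 2.81 to 165.6 at 80 mg/kg on day 15, against 384.5 to 678.9 in controls. Kmo, an enzyme of tryptophan breakdown, remained 0.52 log2 lower on day 24 (adjusted p = 0.0054), 34.9% of its day 15 change. Tat and Asl, tyrosine aminotransferase and argininosuccinate lyase, went against the list: both were higher on day 15, by 1.09 and 1.25 log2, and fell back relative to control. For Tat the controls were 1.29 log2 higher on day 24 than on day 15 (adjusted p = 2.8e-05), and the 80 mg/kg level differed by -0.09 log2. The 2 lower on day 24 became 4 without 80 mg/kg replicate 5 of that day, and the 2 that fell became 4 without that array or control replicate 2. The number lower on day 24 was 1 without control replicate 3 or 4 or 80 mg/kg replicate 2, 3 or 4, and 22 with arrays at a common median.

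Uptake and export carriers, bile acid genes and sex-biased genes changed too. Of 16 carriers, 10 were lower and 4 higher on day 15, 9 rose and 4 fell between the days, and 2 were higher and 2 lower on day 24 (0 and 7 at a common median). Those that fell included the export carriers Abcc3 and Abcc4. Slc22a8, an organic anion transporter, had signals of 1022, 1260, 1354, 1081 and 1106 at 80 mg/kg on day 24, against 680.4, 1288, 1173 and 908.3 in controls. On day 15 it had 27.83 to 129.2 at 80 mg/kg, against 917.3 to 1144 in controls. The day 24 groups overlapped, and the change between days was 3.90 ± 0.39 log2 (SE, adjusted p = 2.8e-11). Slc10a1, the main bile salt uptake carrier, stood -0.02 log2 from control on day 24 after -1.99 log2 on day 15. Of 12 bile acid synthesis genes 8 rose back and none passed on day 24, against 5 lower at a common median. Of 12 genes expressed more in male than in female rat liver, 11 were lower on day 15, 11 rose back and none passed on day 24 (3 lower at a common median); Hao2, a hydroxy acid oxidase, and Obp3, an odorant-binding protein, kept -0.11 of -3.33 and -0.26 of -3.33 log2. Of 7 genes expressed more in female liver, 4 were lower and 1 higher on day 15, 3 rose and 1 fell between the days, and 0 passed on day 24. Prlr, Cyp2c7 and Cyp2a1, the prolactin receptor and 2 cytochromes P450, were the ones that rose relative to control, by 2.11, 1.79 and 0.55 log2. Only 1 rose without control replicate 3 of day 24, and 2 without control replicate 4. Prlr had 168.2 to 272.8 at 80 mg/kg on day 24, against 489.1, 23.59, 45.62 and 224.6 in controls, so the groups overlapped. On day 15 it had 66.77 to 175.3 at 80 mg/kg, against 124.9 to 417.1 in controls. The list median moved by 0.65 log2 between the days within the 80 mg/kg groups and by -0.32 log2 within the controls. Cyp2c12, the typically female cytochrome P450, was the one that fell, with 3.76 log2 on day 15 and 0.77 log2 on day 24, where it did not pass (adjusted p = 0.38). Its male counterpart Cyp2c11 kept -0.14 of -2.09 log2.

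Secreted proteins rose back in most cases, and lipid synthesis genes in fewer. All 16 complement genes were lower on day 15 and 15 rose back, among them C6, a component of the membrane attack complex, with -0.55 log2 left of -3.35. On day 24 C3, the central component, was 0.42 log2 lower (adjusted p = 0.022) and Masp1, a protease of the lectin pathway, 0.28 log2 higher (adjusted p = 0.012), while 11 were lower at a common median. The C3 call was lost without control replicate 2 or 5 or 80 mg/kg replicate 1 or 2 of day 24 (-0.40 to -0.28 log2), and that of Masp1 without control replicate 2 or 3 (0.25 log2 each). Of 17 coagulation and plasma protein genes 16 were lower on day 15, 14 rose back and 0 passed on day 24, against 17 lower on day 24 with arrays at a common median. Of 19 fatty acid synthesis genes 13 were lower and 1 higher on day 15, 8 rose back and 1 fell. Of 20 cholesterol genes 8 were lower and 2 higher on day 15, and 5 rose between the days, beside 16.6% of all genes. Within the 80 mg/kg groups 5 cholesterol genes were higher and 5 lower on day 24 than on day 15. Scd and Pklr, stearoyl-CoA desaturase and liver pyruvate kinase, kept -0.25 of -2.90 and -0.21 of -2.58 log2. Apom, an apolipoprotein of high-density lipoprotein, remained 0.45 log2 lower (adjusted p = 0.023), but not past the threshold without control replicate 3 or 80 mg/kg replicate 2 of day 24 (-0.40 and -0.38 log2). Of 24 chaperone and degradation genes of the endoplasmic reticulum, 18 were lower on day 15 and 17 rose back relative to control. On day 24, 1 was lower, and 9 at a common median. Within the 80 mg/kg groups 13 were higher and 3 lower on day 24 than on day 15, while 11 were lower within the controls. Edem1, which marks misfolded glycoproteins for removal, stood 0.22 log2 from control on day 24 after -1.51 log2 on day 15.

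**Figure D3:**
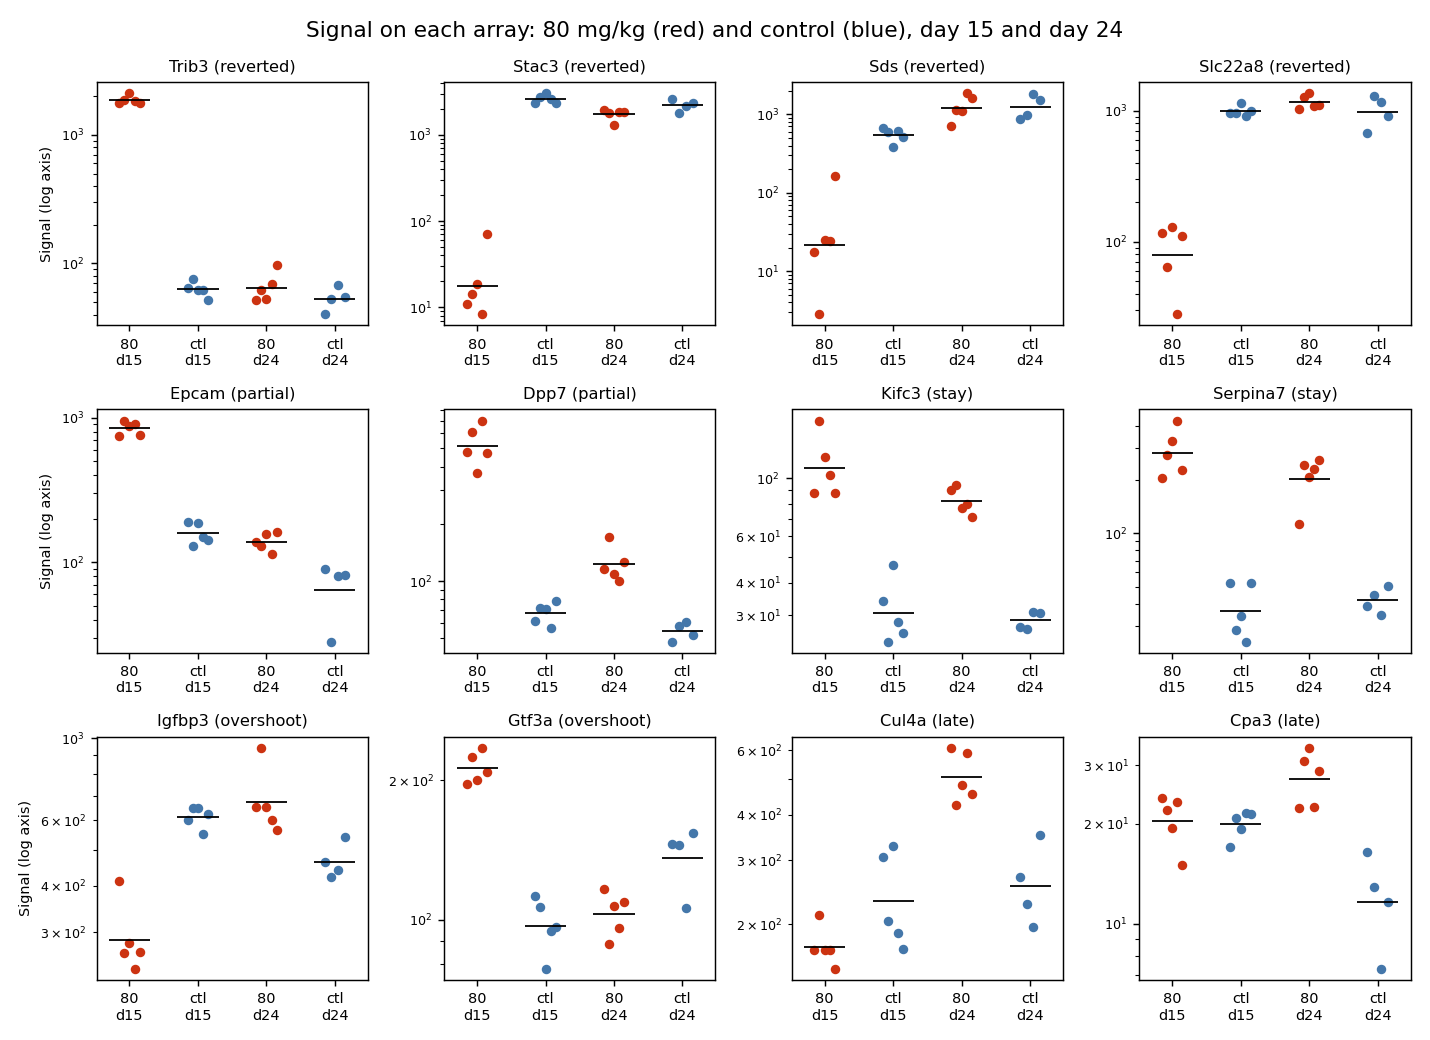
Signal on each array (log axis) for 12 genes; 80 mg/kg in red and control in blue, day 15 then day 24, with a bar at the geometric mean and the class in brackets. The red and blue points of Trib3, Stac3, Sds and Slc22a8 are apart on day 15 and overlap on day 24, those of Epcam, Dpp7, Kifc3 and Serpina7 are apart on both days, and those of Cul4a and Cpa3 are apart on day 24 only.

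Cell division genes receded less clearly. All 33 measured mitosis genes were higher on day 15, with a median of 2.06 log2, and the median on day 24 was 0.89 log2. By the test 8 fell between the days, beside 26.1% of all genes, and 1 was higher on day 24, beside 7.15% of all genes. The level of the list overlapped between groups on day 24, with -0.16 to 1.29 log2 at 80 mg/kg against -1.11 to 0.75 in controls, and the number falling between days was 20 without control replicate 3 of day 24, 2 without control replicate 2 and 1 without control replicate 4 or without 80 mg/kg replicate 4. The number higher on day 24 was 4 without control replicate 4. These genes had low signals, with a median of 14.2 in the day 24 controls. Ttk, a spindle checkpoint kinase, changed by -3.79 log2 between the days (adjusted p = 0.020), with control signals near the bottom of the scale and no pass without control replicate 4 or 80 mg/kg replicate 4 of day 24 or control replicate 1 of day 15 (-3.28 to -3.22 log2). Hmmr, a spindle protein, was still 1.37 log2 higher on day 24 (adjusted p = 0.024), though not without control replicate 3 or 5 or 80 mg/kg replicate 1 or 2 of that day (1.14 to 1.32 log2). Cdkn1a, the p53-induced inhibitor of the cell cycle, stayed: it was 1.25 log2 higher on day 15 and 0.81 log2 higher on day 24 (adjusted p = 0.016), and did not pass without control replicate 2 or 5 or 80 mg/kg replicate 2 of that day (0.61 to 0.73 log2). Of 16 p53 targets, 8 fell back, including Gadd45a, a DNA damage response gene, with 0.45 of 2.50 log2 left.

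The 104 partial genes kept a median of 38.2% of their change, and their number was 58, 63 and 67 without control replicate 3, control replicate 5 and 80 mg/kg replicate 2 of day 24. Dpp7, a lysosomal dipeptidase, had signals of 116, 170.6, 109.1, 100.3 and 125.8 at 80 mg/kg on day 24, against 48, 57.81, 60.55 and 52.24 in controls. Its day 15 signals were 372.5 to 699.8 at 80 mg/kg, against 56.3 to 78.94 in controls. The groups were apart on both days; the difference was 1.17 ± 0.18 log2 on day 24 (SE, adjusted p = 6.6e-05), 39.8% of that on day 15. Lgals2, a galectin, had 43.41 to 75.08 at 80 mg/kg on day 24, against 10.69 to 22.72 in controls, and kept 58.9%. Igfbp2, a binding protein of insulin-like growth factors, had 51.47 to 109.8 at 80 mg/kg on day 24, against 19.27 to 31.59 in controls, and kept 38.3%. Phgdh, the first enzyme of serine synthesis, had 13.15 to 26 at 80 mg/kg on day 24, against 0.73 to 3.2 in controls, and 367.2 to 575.4 at 80 mg/kg on day 15, against 1.52 to 11.04 in controls. Its control signals are near the bottom of the scale, so its remainder of 53.1% depends on values with no firm fold. Among the genes still lower, Slco1a4, an organic anion transporter, had 1344 to 2075 at 80 mg/kg on day 24, against 2359 to 2909 in controls. The groups did not overlap, and the difference was -0.67 log2 (adjusted p = 0.016), falling short without 80 mg/kg replicate 1 or 2 of day 24 (-0.58 and -0.60 log2). Cxcl12, a chemokine, remained 0.60 log2 lower (adjusted p = 0.014) and fell short without control replicate 2 or 5 or 80 mg/kg replicate 2 of day 24 (-0.53, -0.52 and -0.51 log2).

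Few genes stayed, and most had modest signals. Serpina7, the thyroxine-binding globulin, had signals of 112.1, 242.6, 207.2, 229.5 and 257.4 at 80 mg/kg on day 24, against 39.09, 44.77, 34.45 and 50.67 in controls. The day 15 signals were 203.1 to 430.1 at 80 mg/kg, against 24.5 to 52.57 in controls. The groups were apart on both days; the difference was 2.27 ± 0.50 log2 on day 24 (SE, adjusted p = 0.0027), and the change between days of -0.68 ± 0.69 log2 did not pass (adjusted p = 0.45). Kifc3, a minus-end-directed kinesin, had 90.62, 94.03, 77.12, 79.88 and 71.06 at 80 mg/kg on day 24, against 27.04, 26.67, 30.78 and 30.72 in controls, and kept 82.5% of a day 15 difference of 1.84 log2. Prom1, a membrane protein of progenitor and bile duct cells, had 35.38 to 56.85 at 80 mg/kg on day 24, against 13.95 to 24.56 in controls, and kept 69.4%. Tmem86a, which encodes a lysoplasmalogen-degrading enzyme, was 1.03 log2 higher on day 24 (adjusted p = 0.0029). Car2, a carbonic anhydrase, was 1.09 log2 higher (adjusted p = 0.014), with 0.84 and 0.88 log2 and no pass without control replicate 3 or 80 mg/kg replicate 2 of day 24. RT1-Ba, a class II histocompatibility chain, had 99.46 to 800.9 at 80 mg/kg on day 24, against 54.28 to 192.4 in controls; the groups overlapped and its pass (1.62 log2, adjusted p = 0.038) was lost without 80 mg/kg replicate 1, 2, 3 or 4 or control replicate 2, 4 or 5 of that day (1.2 to 1.74 log2). The 1 gene that stayed lower was Rgs16, a regulator of G protein signalling, named after its values were seen (-1.08 log2 on day 15 and -1.33 log2 on day 24, adjusted p = 0.049). With 16 added to every signal, 10 of the 50 genes were still in this class, and with quantile normalization 18.

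The class of 6 genes that overshot depended on single arrays. Without control replicate 3 of day 24 it held 1 gene, and 0 of the 6 were in it. Without 80 mg/kg replicate 2 of that day it held 2 genes, with 1 of the 6, and without 80 mg/kg replicate 5 it held 13, with all 6. Igfbp3, which carries insulin-like growth factor in the blood, had signals of 653.2, 941.6, 651.9, 600.7 and 566.6 at 80 mg/kg on day 24, against 462.4, 421.1, 441.7 and 539.6 in controls. On day 15 it had 410.7, 263.6, 280, 239 and 264.5 at 80 mg/kg, against 601.1, 646.7, 647.7, 552.8 and 623 in controls. The 80 mg/kg arrays lay below the controls on day 15 and above them on day 24; the difference between days was 1.63 ± 0.23 log2 (SE, adjusted p = 5.6e-08) and the day 24 difference 0.53 ± 0.16 log2 (adjusted p = 0.029). Ifgga2l1, which the annotation names after an interferon-inducible GTPase family, had 447.8 to 734.3 at 80 mg/kg on day 24, against 606.4, 187.1, 58.61 and 376.2 in controls. The groups overlapped, and the day 24 difference of 1.24 log2 (adjusted p = 0.031) was 0.60 log2 without control replicate 4 (adjusted p = 0.29) and did not pass without control replicate 3 or 80 mg/kg replicate 1 or 2 either. Gtf3a, the transcription factor of 5S ribosomal RNA genes, had 88.38 to 116.6 at 80 mg/kg on day 24, against 106.2 to 153.6 in controls, a difference of -0.40 log2 (adjusted p = 0.014) after 1.13 log2 on day 15. The day 24 calls of Igfbp3 and Gtf3a were also lost without single arrays: for Igfbp3 without control replicate 2, 3 or 4 or 80 mg/kg replicate 2 of day 24 (0.41 to 0.53 log2), and for Gtf3a without control replicate 3 or 5 or 80 mg/kg replicate 2 (-0.37 to -0.35 log2). Igfbp3 was 0.28 log2 above control with arrays at a common median and did not pass (adjusted p = 0.18).

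Late genes differed from control after dosing had ended. Cul4a, the scaffold of a ubiquitin ligase, had signals of 610.5, 424.8, 482.7, 591.6 and 454.6 at 80 mg/kg on day 24, against 269.2, 227.1, 196.9 and 352.2 in controls. Its day 15 signals were 150.8 to 211.9 at 80 mg/kg, against 171.2 to 327.7 in controls. The groups were apart on day 24 and overlapped on day 15, with a change between days of 1.41 ± 0.31 log2 (SE, adjusted p = 0.00021). Ddx60, an antiviral helicase induced by interferon, had 44.94 to 74.74 at 80 mg/kg on day 24, against 15.96 to 20.84 in controls, and 15.4 to 27.7 at 80 mg/kg on day 15, against 14.83 to 32.83 in controls. For Cul4a and Ddx60 the 80 mg/kg groups differed between the days (1.55 and 1.37 log2, adjusted p = 1.5e-08 and 5.5e-05) and the controls did not pass. Mnda, a nuclear protein of myeloid cells, differed in its source: the controls were 0.77 log2 lower on day 24 than on day 15 (adjusted p = 0.0039) and the 80 mg/kg arrays 0.45 log2 higher (adjusted p = 0.029). Clec14a, an endothelial surface lectin, showed the same split, with -0.60 log2 in controls (adjusted p = 0.025) and 0.40 log2 at 80 mg/kg (adjusted p = 0.048). Of the late genes that were lower, Chuk, a kinase of the NF-kappa B pathway, had 726 to 803.9 at 80 mg/kg on day 24, against 978 to 1180 in controls, and Shmt1, cytosolic serine hydroxymethyltransferase, had 554.9 to 620.8 at 80 mg/kg, against 708.9 to 964.1 in controls. Neither group pair overlapped, and the day 24 differences were -0.50 and -0.55 log2 (adjusted p = 0.0014 and 0.0021).

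Several lists of markers of other liver cells stood above control on day 24. Of 20 macrophage markers, 14 were higher and 0 lower on day 24, beside 7.15% of all genes higher, with a median of 0.62 log2 against 0.04 log2 over all genes; without control replicate 5 of day 24, 8 were higher. The 30 mg/kg group, set against the same day 24 controls, had list medians of 0.32 log2 for macrophage, 0.24 for T and NK lymphocyte, 0.18 for endothelial and 0.15 for matrix markers on day 24, against 0.01 over all genes. On day 15, 13 macrophage markers were higher at 80 mg/kg, with a median of 0.51 log2. C1qb, a complement component made by macrophages, had signals of 334.9, 332.8, 342.7, 312.2 and 340.4 at 80 mg/kg on day 24, against 176.6, 208.4, 209.2 and 160.2 in controls. The day 15 signals were 360.6 to 511.5 at 80 mg/kg, against 261.7 to 328.2 in controls. The groups were apart on both days; the day 24 difference was 0.83 ± 0.13 log2 (SE, adjusted p = 6.6e-05), and the difference between days did not pass. Adgre1, the F4/80 antigen, was 0.78 log2 higher on day 24 (adjusted p = 0.0035). Gpnmb, a glycoprotein of lipid-laden macrophages, receded to 0.97 log2 on day 24, against 2.82 log2 on day 15; it did not pass on day 24 without control replicate 5 (0.79 log2). Mrc1, the mannose receptor, had 285.6 to 378.7 at 80 mg/kg on day 24, against 231 to 267 in controls, and 306.7 to 369 at 80 mg/kg on day 15, against 307.7 to 407.7 in controls. Its 80 mg/kg level differed by 0.01 log2 between the days, and its controls were 0.46 log2 lower on day 24 (adjusted p = 0.0032). Over the list, 9 markers were lower on day 24 than on day 15 within the controls and 9 within the 80 mg/kg groups.

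Matrix and endothelial genes stood higher on day 24 than on day 15, relative to the controls of the day. Of 33 stellate cell and matrix genes, 17 were higher on day 24 and 9 on day 15, with 10 rising between the days (16.6% of all genes rose) and a median of 0.53 log2 on day 24. The day 24 count was 4 without control replicate 3 and 5 without 80 mg/kg replicate 2 of that day, with medians of 0.43 and 0.39 log2, and 10 or 11 without control replicate 2, control replicate 5 or 80 mg/kg replicate 4. Thbs2, a matricellular thrombospondin, had 21.41 to 32.45 at 80 mg/kg on day 24, against 10.05 to 17.89 in controls, and 14.35 to 20.44 at 80 mg/kg on day 15, against 10.87 to 24.12 in controls. The groups were apart on day 24 (adjusted p = 0.0087); the change between days of 0.94 log2 (adjusted p = 0.026) fell short without control replicate 3 or 5 or 80 mg/kg replicate 5 of day 24, or control replicate 5 or 80 mg/kg replicate 4 of day 15 (0.81 to 0.87 log2). Ccn2, a growth factor of fibrosis, moved the other way between the days (-1.34 log2, adjusted p = 0.0024). Of 16 endothelial markers, 6 were higher on day 24, against 2 higher and 5 lower on day 15, and 9 rose between the days; the day 24 count was 3 without control replicate 5. Gpr182, a receptor of sinusoidal endothelium, had 150.6 to 190.7 at 80 mg/kg on day 24, against 119 to 137.6 in controls, and 147.8 to 169.8 at 80 mg/kg on day 15, against 177.8 to 214.4 in controls. Its 80 mg/kg level differed by 0.11 log2 between the days, and its controls were 0.66 log2 lower on day 24 (adjusted p = 8.1e-07). Over the list 7 endothelial markers were lower on day 24 than on day 15 within the controls, and 5 were higher within the 80 mg/kg groups.

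Bile duct and progenitor markers receded in part. Of 16, 12 were higher on day 15, beside 38.8% of all genes. Between the days 5 fell, beside 26.1% of all genes, and 5 were higher on day 24, beside 7.15%. The list medians were 1.64 and 0.79 log2 on days 15 and 24. Epcam, an adhesion molecule of bile duct cells, had signals of 137.4, 130.2, 155.4, 114.3 and 161.1 at 80 mg/kg on day 24, against 89.85, 28.18, 80.57 and 81.1 in controls. On day 15 it had 750.1 to 956 at 80 mg/kg, against 129.9 to 191 in controls. The groups were apart on both days, and 46.2% of the day 15 difference of 2.42 log2 was left (day 24 adjusted p = 0.0017), while the controls too were 1.31 log2 lower on day 24 than on day 15 (adjusted p = 6.3e-05). Cd24, a surface protein of progenitor cells, kept 40.4% of 2.71 log2. Of 5 mast cell markers, 1 rose and 1 fell between the days, and 2 were higher on day 24 (1 with quantile normalization). The riser was Cpa3, a mast cell carboxypeptidase, with 22.23 to 33.86 at 80 mg/kg on day 24, against 7.32 to 16.46 in controls. On day 15 it had 14.97 to 23.97 at 80 mg/kg, against 17 to 21.56 in controls. Its day 24 difference was 1.23 log2 (adjusted p = 0.0006) and its controls were 0.78 log2 lower than on day 15. Hdc was the marker that fell, with 48.89 to 85.83 at 80 mg/kg on day 15, against 11.6 to 24.26 in controls. On day 24 Hdc had 5.37 to 25.05 at 80 mg/kg, against 14.45 to 21.98 in controls.

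**Figure D4:**
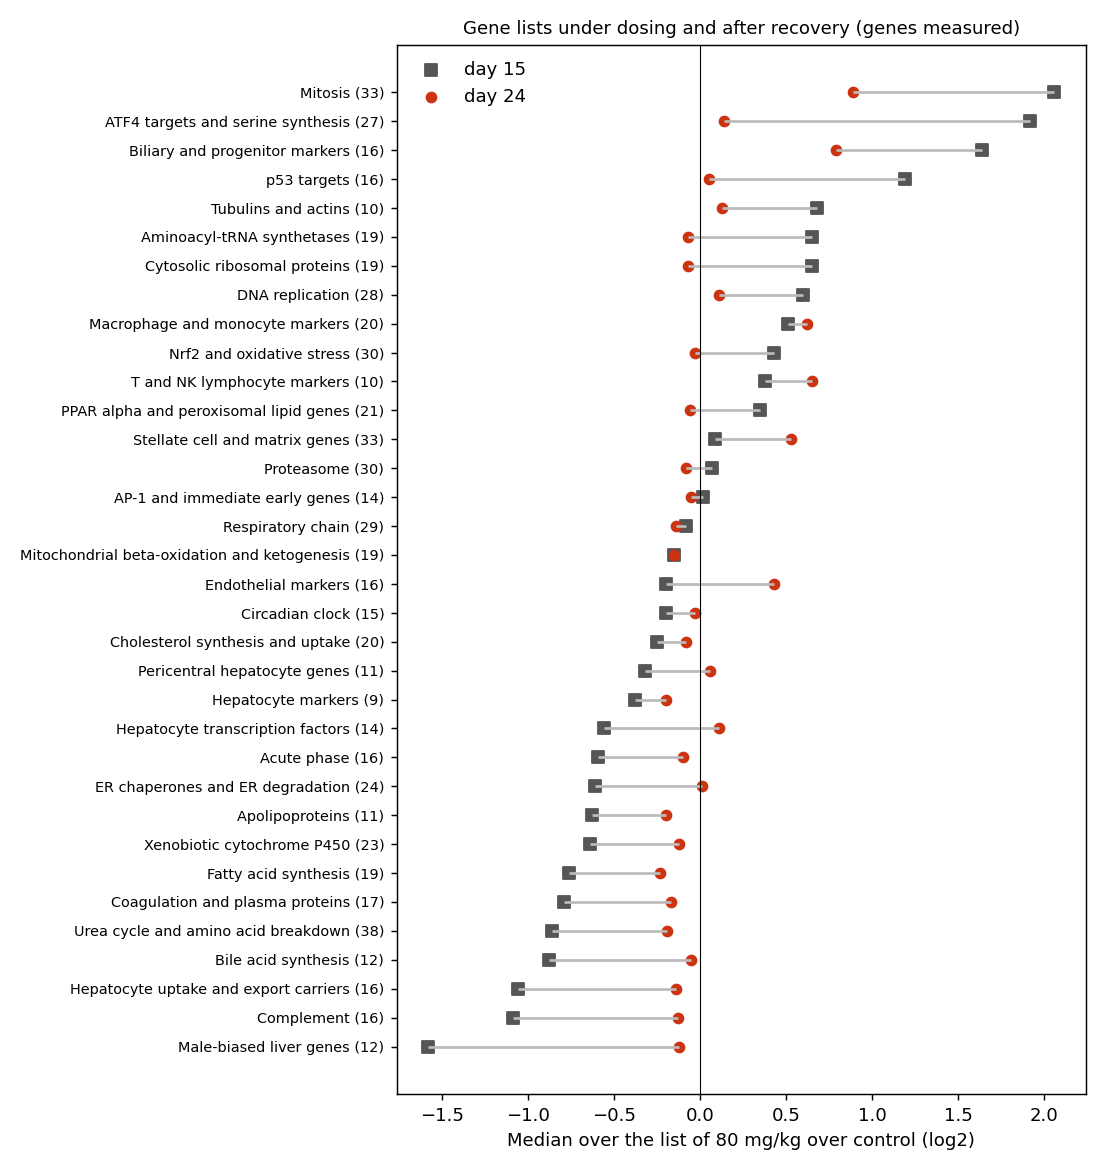
Median difference between 80 mg/kg and control (log2) over each gene list with at least 9 measured genes, on day 15 (grey squares) and day 24 (red circles); brackets give the genes measured. The ATF4, NRF2, complement and male-biased lists lie at 0.14, -0.03, -0.13 and -0.12 on day 24, while macrophage, matrix and endothelial lists lie at 0.62, 0.53 and 0.43.

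The marker counts moved with the scaling. Median control signals on day 24 were 129 for the macrophage list, 80.2 for the matrix list, 69 for the endothelial list and 25.2 for the bile duct list, and in part these lie among the bins of signal with an upward shift of all genes on day 24. The number of markers higher on day 24 was 12, 9, 6 and 4 with quantile normalization and 6, 6, 0 and 4 with arrays at a common median, against 14, 17, 6 and 5 as deposited, in the order just given. The list medians remained positive under both scalings, at 0.59, 0.46 and 0.34 log2 with quantile normalization and 0.37, 0.28 and 0.17 log2 at a common median for the first 3 lists. On single arrays the macrophage list lay at 0.40 to 0.83 log2 at 80 mg/kg on day 24, against -0.22 to 0.18 in controls. Of 9 hepatocyte markers, 7 were lower on day 15, and only 2 rose between the days (16.6% of all genes rose). The list median was -0.38 log2 on day 15 and -0.20 log2 on day 24. On day 24 0 markers passed, while 8 passed as lower at a common median. Their level on day 24 was -0.62 to 0.02 at 80 mg/kg, against -0.12 to 0.08 in controls, with a median signal of 5990 in the day 24 controls. The part of the array medians, the controls' own change between days and the signal level in these differences was not tested.

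**Figure D5:**
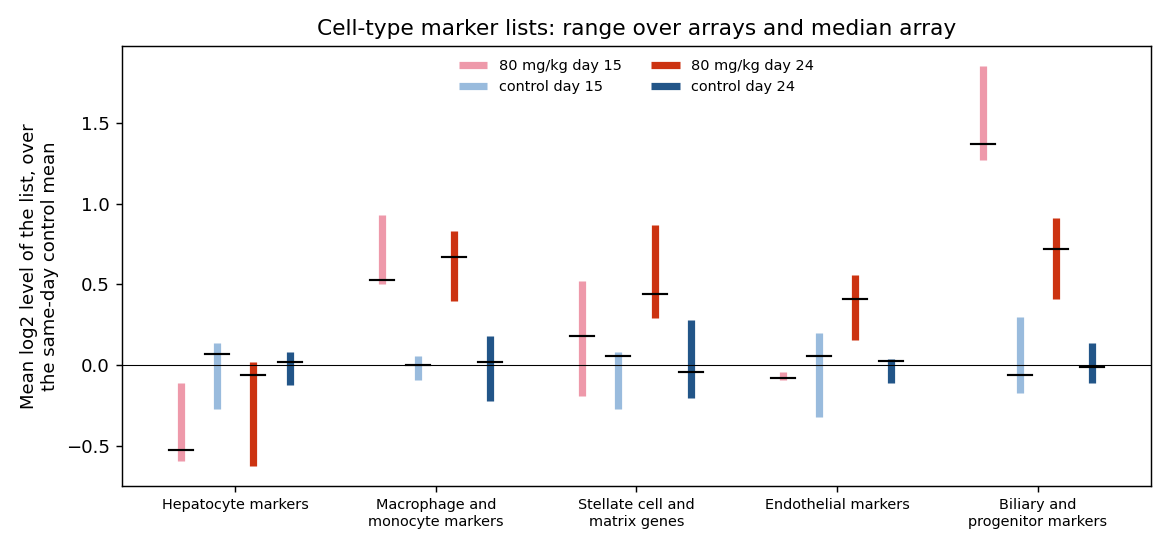
Level of 5 cell-type marker lists, as the mean log2 signal over the list minus the control mean of the same day; bars span the lowest to the highest array of a group and black lines mark the median array. On day 24 the macrophage, matrix, endothelial and bile duct bars of 80 mg/kg lie above those of the controls, and the hepatocyte bars overlap.

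The lower dose gave fewer calls. At 30 mg/kg, 117 genes passed in the difference between days (1.09%, with 0.401% upwards and 0.69% downwards). On day 15, 493 genes passed (4.6%, with 2.71% higher and 1.88% lower), and on day 24 10 genes (0.0932%, with 0.0466% higher and 0.0466% lower). The 30 mg/kg groups were compared with the same controls as the 80 mg/kg groups, so the change between days was also compared directly between the doses, a test added after the data were seen that uses no control array. It passed for 4129 genes (38.5%), 1511 upwards (14.1%) and 2618 downwards (24.4%). Of the 1568 genes with a large change at 80 mg/kg on day 15, 187 passed at 30 mg/kg on day 15 with the same sign. Single 30 mg/kg arrays on day 24 held -0.626%, -3.77%, 6.58% and 1.84% of the 80 mg/kg day 15 difference, within the range of the day 24 controls except for the highest.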

How the data were processed

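Liver RNA was hybridised to Affymetrix Rat 230 2.0 arrays, 1 per rat, with groups taken from the sample titles. The deposited values are MAS5 signal values, summarised probe intensity on a linear scale, per the submitters' processing notes (version not given in the sources used here); the authors' table is scaled to a common trimmed mean. Log2 of the deposited signal was taken without an offset. Probe sets were kept with a signal above 17.09, the median of all values, on at least 4 arrays, leaving 18677 of 31099, of which 14341 had 1 gene symbol. Symbols came from the platform annotation, updated through RefSeq (GRCr8), and the probe set with the highest mean stood for a gene. limma 3.58.1 (R 4.3.3) fitted the 12 group means over all 57 arrays with a variance trend, with Benjamini-Hochberg adjustment of p over the 10725 genes tested. The number of arrays limits the precision.

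The class rules take the adjusted p threshold of 0.05, a day 15 change of 1 log2 and a share of 25%. The genes named are the 8 largest rises and 8 largest falls among reverted genes, up to 6 each way for genes that stayed, overshot or were late, up to 4 each way for partial genes, and up to 3 members of each list along its median, 2 against it and 3 passing on day 24, ranked on log2 of signal plus 16. The genes, lists and rules were chosen with earlier results of these data known. Nupr1, Chac1, Gstp1, Ugdh, Me1 and Rgs16 were added after their values were seen, all but Rgs16 for their promoters. The test of the difference between days and the reverted, stay, overshoot and late classes were tested on simulated data. Alternatives were quantile normalization, arrays at a common median, no filter and a stricter filter (60th percentile), offsets of the 20th percentile and of 16, averaging the probe sets of each gene, a test of every probe set, array weights, dropping the variance trend, a fit to the 4 compared groups alone, the actin ratio as a covariate, a replicate block and each of 19 arrays left out. A mean signal above 100 was chosen after seeing the data. Promoters were searched with Python 3.11.15 and pandas 2.3.3.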

Additional observations from a re-analysis of the deposited data

Results flagged for a closer look

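Of 14 combinations of a measure and a group of 4 or 5 arrays, 2 held an array far from the others, and chance gives about 1 in 20 such combinations. The median signal of 80 mg/kg replicate 2 on day 15 was 19.23, and the actin 3'/5' ratio of control replicate 5 on day 15 was 6.37. The effect of 80 mg/kg differed between day 24 and day 15 in 4578 genes by the test of the difference. In 3 of the named genes the effects also had opposite signs on the 2 days and each passed: the difference between days was 3.64 log2 for Ifgga2l1, 1.63 log2 for Igfbp3 and -1.54 log2 for Gtf3a.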

How the results depend on the processing

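With arrays at a common median the median of all genes moved to -0.208 log2 on day 24 and 3626 genes passed there, 267 higher and 3359 lower, with 303 partial, 69 overshooting and 694 late genes; with quantile normalization 461 were higher and 312 lower, the share left was 10.2%, the level of genes picked on day 8 was 0.45 log2, and 65 genes were partial and 27 stayed. A stricter filter gave a share of 12.6%, 27 genes that stayed, 3 overshooting, 119 receding without a class and 61 passing neither test, against 515 in the last group with no filter. An offset of 16 gave 12.4%, a level of 0.39 log2, 18 that stayed, 3 overshooting, 97 receding and 36 passing neither, and the smaller offset 162 in the last group. Array weights gave 12 overshooting genes and the actin covariate 2. With a mean signal above 100, 3045 genes passed between days, 554 on day 24 and 3772 on day 15; the share was 9.23%, and 521 reverted, 42 were partial, 6 stayed, 3 overshot, 61 receded, 17 passed neither and 114 were late. For the counts above 100 fewer genes were tested.

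Leaving out each array, the counts were 4269 to 4537 between days, 611 to 1277 on day 24, 5969 to 6359 on day 15, 856 to 1017 reverted, 58 to 109 partial, 34 to 72 staying, 1 to 13 overshooting, 162 to 216 receding, 272 to 336 passing neither and 139 to 278 late, and the share was 14.2% to 17.1%. The lowest day 24, partial, overshooting and late counts came without control replicate 3 of day 24. Of 257 single-gene results, 172 kept their direction and side of the threshold under every alternative. Under the mean of probe sets Hadha and Masp1 turned on day 24, to 0.02 and -0.23 log2. The cause of these moves was not tested. With the replicate block 4588 genes passed between days and 1116 on day 24; same-numbered arrays had correlations of -0.096 to 0.095, so the numbers do not pair the rats. Low signal over background limits fold changes of genes near the bottom of the scale.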

Other observations

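Of 15 circadian clock genes, 2 were higher and 2 lower on day 24. Nr1d1 and Nr1d2, nuclear receptors of the circadian clock, were 1.59 and 0.75 log2 higher at 80 mg/kg on day 24 (adjusted p = 0.0092 and 0.039), and Per2, a repressor of the clock, was 1.19 log2 lower (adjusted p = 0.043). None of the 3 passed between the days. The day 24 call of Nr1d1 was lost without control replicate 2 (1.34 log2, adjusted p = 0.051), that of Nr1d2 without control replicate 2 or 3 or 80 mg/kg replicate 1, 3 or 4 (0.58 to 0.75 log2), and that of Per2 without control replicate 2, 3 or 5 or 80 mg/kg replicate 2, 3 or 4 (-1.26 to -1.04 log2). Dbp, a clock output factor, was 2.40 log2 higher on day 15 and 0.27 log2 from control on day 24. The time of day of sampling is not given in the sources used here.

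The acute phase list, 11 of 16 lower on day 15, held 2 late rises: Steap4, a metalloreductase induced by inflammation, had signals of 658.6 to 1035 at 80 mg/kg on day 24, against 515.1 to 660.3 in controls (0.66 log2, adjusted p = 0.00073). Socs3, the feedback inhibitor of interleukin 6 signalling, was 1.05 log2 higher on day 24 (adjusted p = 0.014), not passing without control replicate 3 or 4 (0.95 and 0.88 log2). Its signals were low, with 16.45 to 19.98 at 80 mg/kg on day 24, against 6.16 to 13.65 in controls. On day 15 they were 7.89 to 14.99 at 80 mg/kg, against 10.61 to 22.67 in controls. Vim, the intermediate filament vimentin, was 0.73 log2 higher on day 24 (adjusted p = 0.0042) and 0.53 log2 on day 15. Abcb4, the phospholipid exporter of bile, was 0.72 log2 higher on day 24 (adjusted p = 0.012), not passing without control replicate 4 (0.59 log2).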
